A study of Mus musculus with 6 samples.

Results

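The S100 genes encode small calcium-binding proteins that work mostly as dimers and carry a pair of EF-hand loops. Binding of calcium opens a surface through which most S100 proteins grip a partner, such as an annexin, a myosin heavy chain or a receptor. Some family members act inside the cell on the cytoskeleton and on membranes, and others are released and act on the receptors of neighbouring cells. In bone marrow the family is best known through S100a8 and S100a9, which fill the cytoplasm of neutrophils and monocytes, while S100a4, S100a6, S100a10 and S100a11 are found in many cell types. The 8 genes described here, S100a1, S100a4, S100a6, S100a8, S100a9, S100a10, S100a11 and S100a13, were taken by gene name from the 34745 genes of the deposited tables, and all 8 were found.

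Hematopoietic stem cells (HSCs) were sorted from the bone marrow of adult C57BL/6 mice as Lin-Sca1+cKit+ (LSK) cells that were CD150+CD34-CD48-, and their RNA was sequenced in bulk from 3 samples of each genotype. WT denotes floxed Med23 without Cre, labelled WT(Med23floxp/flowp). KO denotes the same floxed alleles with Mx1-cre, labelled KO(Mx1-cre;Med23floxp/flowp), so that both groups carry the floxed gene. Med23 is a subunit of the Mediator complex, which links transcription factors to RNA polymerase. The Mx1 promoter answers to interferon and is switched on by injected poly(I:C), in the liver and other tissues as well as in blood cells. The labels do not give the dose or the day of injection for these samples, or whether the WT samples were injected. They do not say that the replicates came from separate animals either, so the p-values measure the spread between these samples, which may be technical.

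Reads counted on genes numbered between 3537269 and 8131344 per sample, so that a signal of 3 counts equals 0.369 to 0.848 CPM, a count scaled by the size of its library. The 13 HSC genes checked, Kit, Meis1 and Mecom among them, were all detected and tested. For 4 of them every KO library was below every WT library and for 1 above, against 6.15% and 6.25% of all tested genes. Levels below are normalized CPM, which are CPM scaled by the TMM method of edgeR, unless FPKM is named. Med23 itself was at 47.6, 70.8 and 24.1 normalized CPM in WT and at 31.6, 29.9 and 36.8 in KO. The library labelled WT replicate 3 was therefore below every KO library at the deleted gene, against its label, and the main results are given with and without it. Reads outside the floxed exons could not be set apart in these counts per gene. The 2 libraries labelled replicate 3 also held 1 and 0 reads of 4 Y-linked genes, against at least 1036 in each of the other 4.

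All 8 genes lie on chromosome 3 of the mouse genome (GRCm38, GENCODE M21) in 2 blocks. The first runs from 90511034 to 90695721, spans 184.7 kb and holds 12 S100 genes, of which S100a1, S100a13, S100a4, S100a6, S100a8 and S100a9 are described here. The second runs from 93520488 to 93564643, spans 44.2 kb and holds S100a11 and S100a10. Their principal transcripts are built alike, with 3 exons in 7 of the genes and 4 in S100a13, and the first exon is non-coding in all 8. S100a1 on the minus strand and S100a13 on the plus strand start head to head. S100a4 (90603771 to 90606045) and S100a6 (90612882 to 90624181) follow each other on the plus strand.

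The 250 bases before the start site were read from RefSeq (GRCm38.p6) for 7 of the genes, with S100a10 having no entry in the table used. They are shown for S100a4 and S100a6, because these were the 2 members whose WT and KO values did not overlap. For S100a1 and S100a13 the 104 bases between their divergent starts are shown, because both genes begin there. All 3 are written 5′ to 3′ on the plus strand in lower case, with capitals for a TATAAA or CCAAT motif on either strand.
S100a4 (chr3:90603520-90603769, plus strand): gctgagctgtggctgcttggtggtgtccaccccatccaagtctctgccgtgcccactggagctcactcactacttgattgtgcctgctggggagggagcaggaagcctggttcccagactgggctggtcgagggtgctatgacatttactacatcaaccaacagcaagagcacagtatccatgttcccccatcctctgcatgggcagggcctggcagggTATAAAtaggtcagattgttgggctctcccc
S100a6 (chr3:90612644-90612893, plus strand): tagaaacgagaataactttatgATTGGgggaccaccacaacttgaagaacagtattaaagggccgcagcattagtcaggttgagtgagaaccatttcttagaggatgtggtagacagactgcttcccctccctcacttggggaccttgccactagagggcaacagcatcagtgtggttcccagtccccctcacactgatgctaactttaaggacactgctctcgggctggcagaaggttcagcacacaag
S100a1 to S100a13 (chr3:90514331-90514434, plus strand): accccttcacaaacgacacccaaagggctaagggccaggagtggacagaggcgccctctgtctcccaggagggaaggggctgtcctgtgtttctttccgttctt

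S100a4 held TATAAA at positions -31 to -26 from its start and S100a8 at -30 to -25, in the place where the TATA box of a promoter usually lies. TATAAA on either strand was present in 12.4% of the 32851 windows of this length in the table. S100a6 held no TATAAA and a CCAAT motif on the opposite strand at positions -228 to -224, and 33.8% of all windows held CCAAT. S100a11 held 3 copies of GGGCGG (the GC box) and 2 of TGANTCA (the AP-1 motif), which were present in 32.7% and 6.75% of all windows. S100a9 held GGGCGG and, beside it, TTGCNNAA (the C/EBP motif, in 9.56% of windows). GCGNGGGCG (the EGR motif, in 4.7% of windows) and the CArG box (1.47%) were in none of the 7 windows, and S100a4 and S100a6 had no searched motif in common. The interval between S100a1 and S100a13 held none of the 7 motifs. These are matches of letters, and binding was not measured.

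S100a4, a partner of non-muscle myosin that is known for its role in cell movement, was at 6.97, 6.15 and 10.5 normalized CPM in the WT libraries and at 12.0, 22.2 and 33.8 in the KO libraries, each in the order of the replicate numbers. The deposited counts behind these levels were 34, 50 and 34 in WT and 59, 122 and 167 in KO. Every KO library was above every WT library, although KO replicate 1 was close to WT replicate 3, and the KO libraries were spread more widely than the WT libraries. The log2 fold change was 1.53 (SE 0.56, 95% confidence interval 0.28 to 2.78, n = 3 per group), which is 2.89-fold. It did not pass the test, with an adjusted p of 0.744 in edgeR's quasi-likelihood test with Benjamini-Hochberg adjustment over 12513 genes. Without WT replicate 3 it was 1.79 (SE 0.61), and without KO replicate 3 it was 1.13 (SE 0.65).

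S100a6, also called calcyclin, binds annexins and the calcyclin-binding protein Cacybp and is made by many dividing cells. It was at 44.5, 51.5 and 44.2 normalized CPM in WT and at 74.2, 99.6 and 115.5 in KO. The 3 WT libraries lay close together, and the lowest KO library was well clear of the highest WT library. The counts behind them were 217, 419 and 143 in WT and 366, 547 and 571 in KO. The log2 fold change was 1.04 (SE 0.28, 95% confidence interval 0.42 to 1.66), which is 2.06-fold, and its adjusted p of 0.415 (edgeR) did not pass the threshold of 0.05 either. DESeq2 gave 1.04 with an adjusted p of 0.0738, the lowest of the 17 alternatives for this gene. Without WT replicate 3 the log2 fold change was 1.01 (SE 0.30).

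The 7 members tested are read against all genes as follows. None was called by edgeR, where 0.0719% of all tested genes were called, and none by DESeq2, where 0.96% were called. An unadjusted edgeR p under 0.05 was found for 2 of the 7, S100a4 and S100a6, against 5.71% of all tested genes in either direction. Both were higher in KO, as were 2.94% of all genes at this p, and no member was lower, against 2.77%. Non-overlapping groups with KO above WT were found for the same 2 members, against 6.25% of all tested genes, and with KO below WT for none, against 6.15%. The estimate was above 0 for 5 of 7 members and for 49.5% of all genes. The median log2 fold change was 0.06 over the 7 members and -0.01 over all genes. S100a6 ranked 110 and S100a4 ranked 353 by p among the 12513 genes. Without WT replicate 3 the same 2 members had an unadjusted edgeR p under 0.05 and separate groups. With that library left out, 23.7% of all tested genes had separate groups in either direction, against 12.4% with all 6. Without WT replicate 1, WT replicate 2 or KO replicate 3 only 1 member, S100a6, had an unadjusted edgeR p under 0.05. Without WT replicate 3 the log2 fold changes of the others were 0.52 for S100a11, 0.34 for S100a10, 0.22 for S100a13, -0.03 for S100a1 and -0.44 for S100a9, and the median of the 7 was 0.34.

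**Figure D1:**
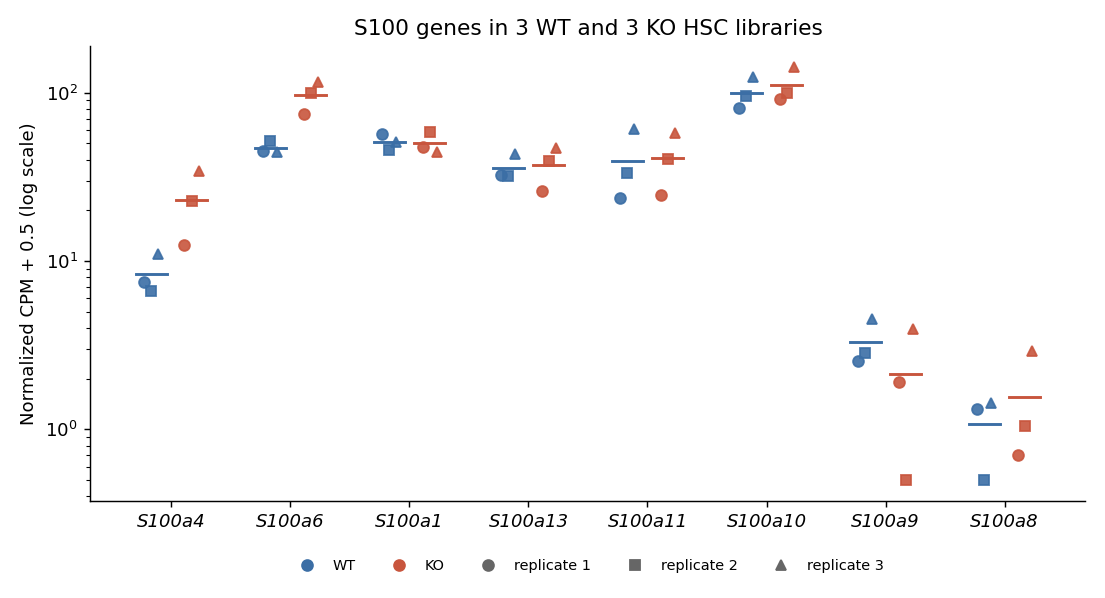
Normalized CPM plus 0.5 (log axis) of the 8 S100 genes in each library, with WT in blue, KO in red, a marker shape for each replicate number and a line at each group mean. S100a4 and S100a6 are the genes whose KO points all lie above the WT points, and the other 6 overlap.

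An exact two-sided permutation test of the group means of log2(CPM + 0.5) gave p = 0.1 for S100a4 and for S100a6, the smallest p that 3 samples against 3 allow, and p of at least 0.4 for the other 6. In bulk RNA a change in the share of cells that make a transcript and a change in its amount per cell cannot be told apart, which holds for every value here. Within the 4 libraries with Y-linked reads (2 WT, 2 KO) the log2 fold change was 1.40 for S100a4 (SE 0.68) and 0.87 for S100a6 (SE 0.33), and for the other 5 members tested it was between -1.61 and 0.20. Within the pair labelled replicate 3 the KO library was 3.22 times the WT library at S100a4 and 2.61 times at S100a6, with 1 library a group.

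S100a10, or p11, is the member that has lost the ability to bind calcium and forms a stable complex with annexin A2 at the cell membrane. It was at 80.6, 94.8 and 123.6 normalized CPM in WT and at 91.0, 98.8 and 142.5 in KO. The groups overlapped, and the log2 fold change was 0.15 (SE 0.28, 95% confidence interval -0.46 to 0.77). S100a11, which binds annexin A1, was at 23.2, 33.1 and 60.3 in WT and at 24.1, 40.0 and 56.9 in KO. Its groups covered nearly the same range, with a log2 fold change of 0.06 (SE 0.46, 95% confidence interval -0.95 to 1.07). Without WT replicate 3, which was its highest library, the value for S100a11 was 0.52 (SE 0.45).

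The head-to-head pair S100a1 and S100a13 was likewise level between the groups. S100a1, which regulates the calcium pumps and release channels of muscle, was at 56.4, 45.0 and 50.7 normalized CPM in WT and at 46.8, 58.1 and 44.1 in KO. S100a13, which helps cells to release Fgf1 and the cytokine Il1a, proteins that have no signal peptide, was at 31.8, 31.6 and 43.0 in WT and at 25.5, 38.6 and 46.5 in KO. Both genes overlapped between groups. The log2 fold change was -0.03 for S100a1 (SE 0.30, interval -0.69 to 0.63) and 0.06 for S100a13 (SE 0.37, interval -0.76 to 0.88). On the linear scale these intervals run from 0.622- to 1.55-fold for S100a1 and from 0.592- to 1.84-fold for S100a13. Reads on S100a13 for each read on S100a1 were 0.564, 0.702 and 0.848 in WT and 0.546, 0.665 and 1.055 in KO, so the ratio within the pair overlapped between groups as well.

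The calprotectin genes S100a8 and S100a9, whose products pair with each other in neutrophils and monocytes, were near the floor of detection. S100a9 had 10, 19 and 13 counts in WT and 7, 0 and 17 in KO, with a log2 fold change of -0.78 whose interval ran from -3.78 to 2.23. S100a8 had 4, 0 and 3 counts in WT and 1, 3 and 12 in KO and did not pass the filter on low counts. Fitted without that filter it gave a log2 fold change of 0.90 with an SE of 1.86. With so few reads and this spread between libraries a difference in the pair was not detectable. Of 20 neutrophil genes checked beside them, Ltf, Mmp8, Cd177, Ly6g and Fcnb were at 0 in every library, and the summed list was at 239.8 to 334.0 CPM in WT and 311.6 to 488.1 in KO, mostly from Padi4 and Csf3r. Mpo and Elane stood at 175.4 and 23.3 CPM in KO replicate 3 and at no more than 4.72 and 3.09 elsewhere. The same library had the highest level of all 6 at S100a4, S100a6, S100a8, S100a10 and S100a13, and the part of such RNA in the S100 values was not tested.

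**Figure D2:**
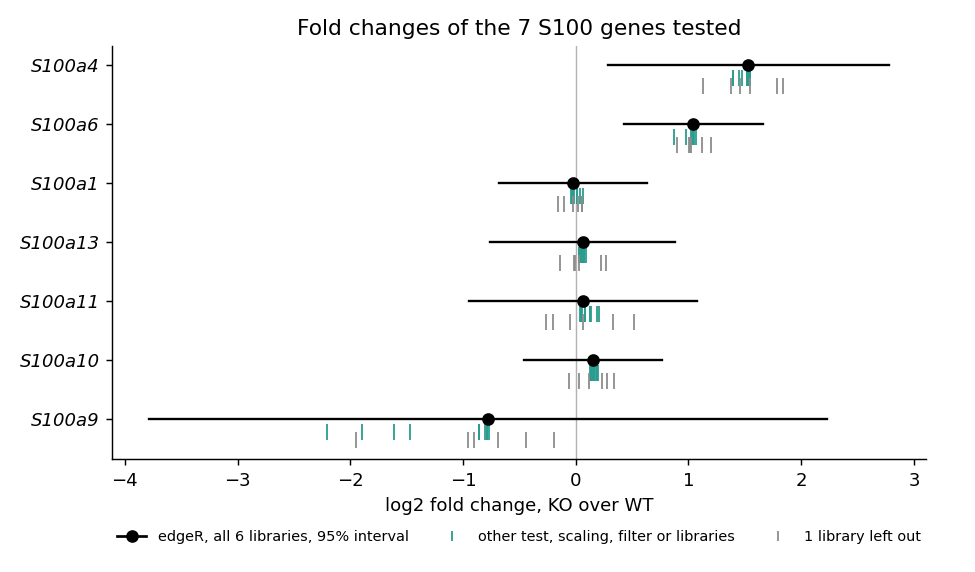
Log2 fold change, KO over WT, of the 7 S100 genes tested: points with bars give the edgeR estimate with its 95% confidence interval over all 6 libraries, green ticks the other tests, scalings, filters and the Y-linked libraries alone, and grey ticks each library left out. The bars of S100a4 and S100a6 lie above 0 throughout, and every other bar spans 0.

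Replicate 3 was the highest library of its group in both WT and KO for 6 of the 8 members, S100a4, S100a8, S100a9, S100a10, S100a11 and S100a13. Over all tested genes this held for 17.4%. These are the libraries with almost no Y-linked reads and with the largest shares of reads on Gm26917 and Gm42418 in their groups, 18.1% in WT and 12.0% in KO. Their part in the S100 levels was not tested. Because one of these libraries stands in each group, the contrast of KO with WT holds both. S100a1 and S100a6 were the exceptions, and WT replicate 3 was the lowest WT library for S100a6.

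Within a library, the ratio of 2 members does not depend on how the library was scaled. For each read on S100a10 there were 0.552, 0.544 and 0.357 reads on S100a6 in WT and 0.815, 1.007 and 0.811 in KO. The groups did not overlap, with means of 0.484 ± 0.110 and 0.878 ± 0.112 (SD, n = 3). Reads on S100a4 for each read on S100a10 were 0.0865, 0.0649 and 0.085 in WT and 0.131, 0.225 and 0.237 in KO, again without overlap. The ratio of S100a4 to S100a6 did overlap, at 0.171 ± 0.061 in WT and 0.226 ± 0.066 in KO. So S100a4 and S100a6 were both higher relative to S100a10. Both ratios to S100a10 were again separate without WT replicate 3, with WT means of 0.0757 for S100a4 and 0.548 for S100a6. The ratio of S100a4 to S100a6 was then barely separate, with a WT mean of 0.138. It was at 0.157 in WT replicate 1 and at 0.161 in KO replicate 1. Each of the 2 separate ratios had the smallest p an exact permutation test allows here, 0.1, as separate groups of 3 always do.

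**Figure D3:**
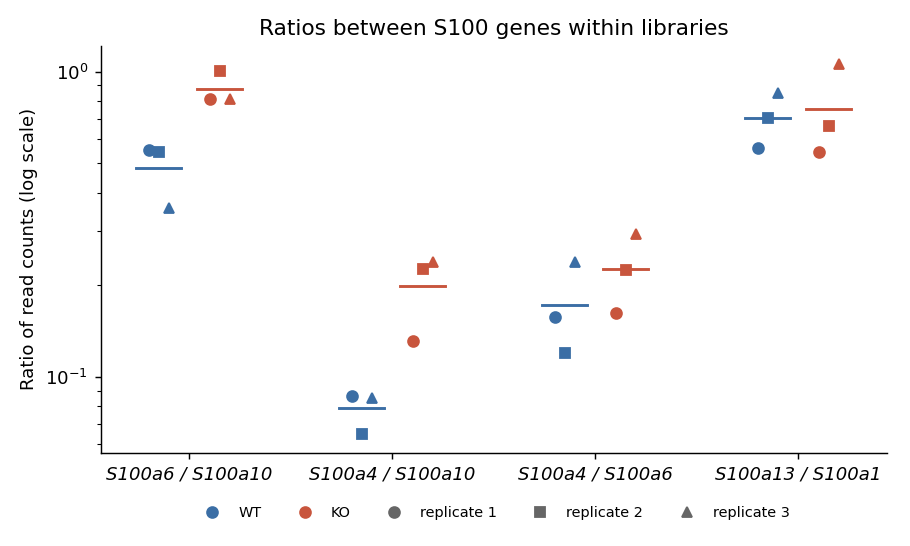
Ratios of read counts between pairs of S100 genes within each library (log axis), WT in blue and KO in red, with a marker shape for each replicate number and a line at each group mean. The ratios of S100a6 and of S100a4 to S100a10 separate the groups, and those of S100a4 to S100a6 and of S100a13 to S100a1 overlap over all 6 libraries.

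The whole family summed to 246.2, 264.3 and 337.2 normalized CPM in WT and 275.1, 357.8 and 445.2 in KO, with overlap. When WT replicate 3, its highest WT library, was left out, the sum was separate between the groups, with a WT mean of 255.2 against 359.4 in KO. The gap was narrow, from 264.3 in WT replicate 2 to 275.1 in KO replicate 1. Of all tested genes 23.7% were separate in either direction without WT replicate 3. The 6 members other than S100a4 and S100a6 summed to 228.0 ± 47.6 in WT and 240.3 ± 53.5 in KO, and overlapped with and without that library. In deposited FPKM, S100a6 made up 9.47 ± 2.33% of the family in WT and 15.8 ± 1.0% in KO, and S100a4 3.54 ± 0.41% and 8.17 ± 1.89%. Neither share overlapped between the groups, with or without WT replicate 3, while the calprotectin pair held 1.64 ± 0.29% in WT and 0.958 ± 0.797% in KO, with overlap.

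Levels between members were compared per length, on the FPKM scale first. In WT the order was S100a11 (73.1 ± 31.5 FPKM), S100a10 (59.8 ± 9.4), S100a13 (48.3 ± 5.8), S100a1 (39.7 ± 5.6), S100a6 (23.8 ± 2.9), S100a4 (9.16 ± 2.14), S100a9 (3.72 ± 1.16) and S100a8 (0.573 ± 0.496). Among the first 4 each overlapped with the next, and from S100a1 downwards each step was separate. In KO, S100a6 (50.4 ± 9.3 FPKM) stood above S100a1 (40.2 ± 7.3) and S100a4 reached 27.2 ± 12.1. The order was otherwise the same, and of its steps the one from S100a4 to S100a9 alone was separate.

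The FPKM order depends on the gene length behind it. The deposited FPKM used 1930 bases for S100a6, 1621 for S100a10 and 1254 for S100a1, whereas their principal transcripts are 731, 685 and 677 bases long. For S100a11 (511 bases) and S100a13 (715 bases) the length used was that of the principal transcript. How the lengths were made is not given in the sources used here. On normalized CPM per kilobase of principal transcript, a scale chosen after these lengths were seen, S100a10 came first in WT (145.5 ± 32.0) and in KO (161.7 ± 40.5). S100a6 moved from rank 5 to rank 4 in WT (63.9 ± 5.7) and from rank 4 to rank 2 in KO (131.9 ± 28.6). The length cancels in a comparison of one gene between WT and KO.

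Some reads could be shared with other genes. Of the 50-base windows in the exons of S100a4, 47.4% also occur in Gm42674, a gene listed on the same strand that had 2, 0 and 0 counts in WT and 0, 1 and 0 in KO. S100a11 shared 41.1% of its windows with 3 pseudogenes, and the other 6 members shared none with another gene. How reads that fit 2 genes were counted is not given in the sources used here, and the levels of S100a4 and S100a11 carry that uncertainty.

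The other S100 genes were almost silent. S100a3, S100a5, S100a16, S100b and S100g had at most 11 counts in any library, and S100a7a, S100a14, S100z and S100a2 had none. S100b, a protein best known from glia, had 0 counts in all WT libraries and 4, 5 and 3 in KO. Its mean in KO was 1.22 times a floor of 3 counts per WT library, and KO replicate 3 was itself at 3 counts. Fitted in edgeR without the filter on low counts, its log2 fold change was 5.08 (interval 0.44 to 9.72) with an adjusted p of 0.673. S100a5, which lies between S100a4 and S100a6, had 0, 1 and 0 counts in WT and 5, 1 and 11 in KO. The ratio of pooled reads was 18.0 with a counting interval (exact, 95%) of 2.82 to 751.2, or 1.79 against the same floor of 3 counts per WT library. Fitted between libraries without the filter on low counts, its log2 fold change was 3.94 with an interval of -0.41 to 8.30, which includes 0. S100a3 had 6, 0 and 0 counts in WT and 4, 1 and 3 in KO, and S100a16 and S100g had at most 3 in any library. The counting interval of S100a5 covers counting error only, since the reads carried no molecular identifiers.

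Genes around the family were examined in the same way, taking every gene that starts within 500 kb of either block. Of 67 such genes 14 were tested, and none was called, against 0.0719% of all tested genes. None had an unadjusted edgeR p under 0.05, against 5.71%. All 14 lay on one side of the first block, at -561.2 to -113.9 kb from the start of S100a6. The second block had no tested neighbour. The median log2 fold change of the 14 was -0.10. Tpm3, which encodes a tropomyosin of the actin filament, was the one whose groups did not overlap. Its KO values were above WT, which held for 6.25% of all tested genes. Its log2 fold change was 0.37 (SE 0.19), or 0.26 without WT replicate 3. By p it was followed by Ints3 at -0.55 (SE 0.41), Dennd4b at 0.16 (SE 0.24), Snapin at 0.15 (SE 0.23) and Chtop at -0.16 (SE 0.34). S100a4 and S100a6, which start 9.11 kb apart, had the highest estimates of the 21 genes tested in the region. The nearest tested genes on either side were S100a13, at 0.06, and S100a9, at -0.78 with an SE of 1.35.

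**Figure D4:**
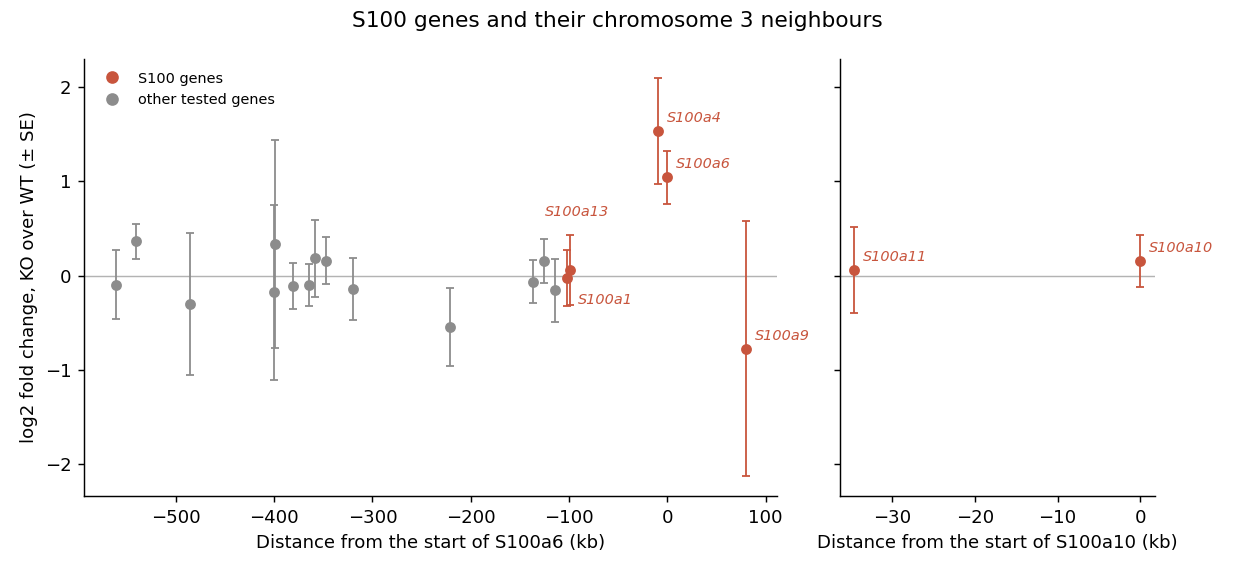
Log2 fold change, KO over WT, with its SE for the tested S100 genes (red) and other tested genes (grey) by distance in kb from the start of S100a6 (left) and of S100a10 (right). S100a4 and S100a6 stand at 1.53 and 1.04, and the other genes of the region lie between -0.78 and 0.37. The right panel holds S100 genes only.

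The proteins that S100 proteins bind were taken as 3 lists, 9 receptors, 12 annexins and 32 partners inside the cell. Of these 53 genes 34 were tested, and none was called by edgeR, against 0.0719% of all tested genes. Estimates were above 0 for 20 and below 0 for 14, and the median log2 fold change was 0.06. An unadjusted p under 0.05 was found for 3 with higher values in KO and 1 with a lower value, against 2.94% and 2.77% of all tested genes, and with 1 library left out for 1 to 3 and for 1 to 2 (2 and 1 without WT replicate 3). Among the receptors, Tlr4, through which S100a8 and S100a9 are sensed, was at 6.97, 4.79 and 2.47 normalized CPM in WT and at 21.3, 32.2 and 11.1 in KO. All KO values were above all WT values, and the log2 fold change of 2.16 (SE 0.64) had an adjusted p of 0.504 in edgeR and was 1.88 without WT replicate 3. Cd69, a membrane protein of activated leukocytes, was at 15.99, 11.8 and 4.64 in WT and at 37.1, 21.7 and 48.8 in KO, with a log2 fold change of 1.71 and an adjusted p of 0.578 in edgeR, and 1.37 without WT replicate 3. The scavenger receptor Cd36 overlapped between groups, with 1, 2 and 10 counts in WT and 1, 23 and 41 in KO. Bsg, the receptor basigin, was the receptor with most reads and was level, with 443.9 ± 48.4 CPM in WT and 442.0 ± 64.5 in KO. Emb and Alcam had log2 fold changes of 0.18 and 0.09. Ager, which encodes the receptor RAGE, had 38 counts in WT replicate 1 and at most 4 in any other library.

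The 12 annexins summed to 906.9, 924.3 and 933.4 CPM in WT and 1073, 1018 and 965.2 in KO, without overlap, also when WT replicate 3 was left out. Their median log2 fold change was 0.04. Anxa2, the partner of S100a10, overlapped between the groups, as did Anxa1, the partner of S100a11. Anxa2 was at 52.3 ± 6.8 CPM in WT and 49.0 ± 15.3 in KO, and Anxa1 at 97.2 ± 23.4 and 99.99 ± 2.57. Of 9 annexins tested Anxa5 alone had groups that did not overlap, with KO above WT, which held for 6.25% of all tested genes. It was at 289.2 ± 39.9 CPM in WT and 378.2 ± 21.5 in KO, the highest level of the list and so the largest part of the sum. Its log2 fold change was 0.39 with an adjusted p of 0.925 (edgeR), and 0.28 without WT replicate 3. Next by p came Anxa7 with -0.27, Anxa4 with 0.16 and Anxa11 with 0.16.

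Inside the cell, 2 partners of the members with separate groups, Myh9 and Cacybp, overlapped between WT and KO. Myh9, the myosin heavy chain bound by S100a4, was at 739.1, 439.0 and 434.5 CPM in WT and at 1115, 462.1 and 472.1 in KO, with overlap. Cacybp, the partner of S100a6, was at 296.5, 220.2 and 206.8 in WT and at 187.4, 220.4 and 201.1 in KO. Ahnak, a scaffold held by S100a10 and Anxa2, was at 44.0 ± 8.8 in WT and 43.0 ± 20.7 in KO. The cargoes of S100a13 were close to absent, since Fgf1 had at most 4 counts and Il1a at most 17 counts in any library.

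The calcium pumps bound by S100a1 differed from each other in direction. Atp2a2, the pump found in most tissues, was at 43.5, 54.7 and 30.9 CPM in WT and at 71.1, 68.8 and 77.9 in KO, with a log2 fold change of 0.75 (SE 0.31) and an adjusted p of 0.799 in edgeR, and of 0.56 without WT replicate 3. Atp2a1, the pump of fast skeletal muscle, had 40, 59 and 61 counts in WT and 2, 0 and 5 in KO. Its log2 fold change was -4.54 with an adjusted p of 0.415 in edgeR and of 0.00661 in DESeq2, so that the call depends on the tool, and it was -3.98 in edgeR without WT replicate 3. A list of 20 skeletal muscle genes, Myh3, Acta1, Ttn and Actc1 among them, was read beside it. The list summed to 179.7 to 451.5 CPM in WT and 9.92 to 39.9 in KO without overlap, and Pvalb was at 0 throughout. Of the 15 tested, 14 had estimates below 0. For 13 every KO library was below every WT library, against 6.15% of all tested genes, and 3 were called by edgeR, against 0.0719%. S100a1, itself a muscle gene, overlapped between the groups, with a log2 fold change of -0.03 (interval -0.69 to 0.63). The part of muscle RNA in the values of Atp2a1 and S100a1 was not tested. Pygm, the muscle glycogen phosphorylase, had a log2 fold change of -0.60 with overlap.

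Markers of other blood cells were read beside the members. Summed monocyte genes overlapped, at 505.0 to 643.8 CPM in WT and 594.6 to 709.9 in KO, and Lyz2, the most abundant of them, was at 473.2 ± 68.4 and 448.3 ± 33.9. Within that list Cd68 was at 14.2, 23.0 and 40.8 in WT and at 60.6, 71.9 and 93.9 in KO, and Itgam at 4.92, 0.737 and 12.1 in WT and at 79.8, 79.2 and 73.7 in KO, both without overlap. Mpeg1, a perforin of macrophages, had 24, 44 and 9 counts in WT and 0 in every KO library, and Ctss overlapped with a log2 fold change of -0.59. Of the 7 tested among these 14 genes, 2 were higher and 1 was lower without overlap, against 6.25% and 6.15% of all tested genes. Adgre1, which was not tested, had 0 counts in every WT library and 2, 11 and 20 in KO. Cd14, Ly6c2, Ccr2 and F13a1 were at 0 in at least 2 KO libraries. Their counts in WT were 3, 0 and 0 for Cd14, 0, 28 and 0 for Ly6c2, 0, 106 and 0 for Ccr2, and 0, 42 and 2 for F13a1. The 11 megakaryocyte genes summed to 481.7 to 730.3 CPM in WT and 681.7 to 724.7 in KO, with overlap, mostly from Vwf, Selp and Itga2b. Of the 10 tested, 5 genes (Selp, Itgb3, Gp9, Gp1ba and Ppbp) had every KO library above every WT library, against 6.25% of all tested genes. For 1 gene, Vwf, the reverse held, against 6.15%. Itgb3 was barely separate, at 33.4 CPM in WT replicate 3 and 33.6 in KO replicate 3. The median log2 fold change of the 10 was 0.63. An unadjusted edgeR p under 0.05 was found for 4 of them higher and 1 lower in KO, against 2.94% and 2.77% of all tested genes. None of the 10 was called, against 0.0719% of all tested genes. Selp, the adhesion molecule P-selectin, was at 128.8, 110.1 and 83.5 in WT and at 193.9, 190.7 and 267.3 in KO. The summed erythroid, B cell, T/NK cell and stromal lists overlapped between groups, and no marker sum named here changed between overlap and separation when WT replicate 3 was left out. The part of these cells in S100a4 and S100a6 was not tested.

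The genes most like S100a4 and S100a6 over the 6 libraries were found among 11631 genes by the root mean square (RMS) difference of their centred log2 levels, which is a description with no test. Closest to S100a4 were Tiam1 (RMS 0.224), Sav1 (0.226), Fcer1g (0.242), Rap2a (0.265) and Crebbp (0.318). Closest to S100a6 were Zdhhc9 (RMS 0.138), Trim56 (0.139), Ep300 (0.155), Gm15261 (0.171) and Tsc22d1 (0.173). Crebbp and Ep300 encode the 2 related histone acetyltransferases CBP and p300. Crebbp was at 159.9, 120.2 and 198.1 CPM in WT and at 156.2, 311.8 and 400.3 in KO, with overlap. Ep300 was at 82.8, 112.8 and 98.3 in WT and at 162.3, 197.6 and 190.2 in KO, without overlap, as was S100a6. S100a4 and S100a6 were less alike than these, with an RMS difference of 0.407 that placed S100a6 in rank 30 for S100a4 and S100a4 in rank 564 for S100a6. None of these 10 genes passed the edgeR threshold, with adjusted p between 0.180 and 0.928.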

How the data were processed

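The data were 6 libraries of sorted HSCs, 3 WT and 3 KO. The authors deposited a table of raw counts for each gene. They also deposited FPKM values, in which each count is divided by the total of its library and by 1 length for that gene. The submitters' processing notes list TopHat, HTSeq and mm10, and their versions, the annotation and the strand setting are not given in the sources used here. The sample labels name the SMART-Seq v4 kit and the paper names TruSeq. Counts were fitted in R 4.3.3 with edgeR 4.0.16 (filterByExpr defaults, TMM, robust quasi-likelihood test, Benjamini-Hochberg over 12513 genes, threshold 0.05). SEs are the fold change divided by the root of F. A value of 3 counts was taken as the floor of detection.

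The alternatives were DESeq2 1.42.0, upper-quartile and RLE scaling, no filter, at least 10 counts in every library, the replicate block, limma 3.58.1 on log2(FPKM + 1) and log2(FPKM + 0.1) with a mean FPKM of at least 1, the former also without that filter, voom with quality weights, the Y-linked libraries only and each library left out. The level per principal transcript was added after seeing the data. The members, gene lists and tests were chosen with earlier results of these data known.

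Genes named were the 8 members, other S100 genes with a read, 11 preset partners, up to 5 genes by p (mean of at least 10 counts) from each partner list and the neighbours, up to 4 genes with most counts per marker list, the 5 genes most like S100a4 and S100a6 (mean of at least 20 counts), Med23, and the Y-linked sum. Marker genes at or near 0, the separate megakaryocyte genes, Gm42674, Gm26917 and Gm42418 were named after their values were seen. Promoter windows came from RefSeq, and the motifs were chosen as common promoter elements. Some genes of the lists are not reported here and stand in none of the counts or sums. Lists of erythroid, B cell, T/NK cell and stromal genes were read as sums only. Of the gene columns none was left unmapped to a sample.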

Additional observations from a re-analysis of the deposited data

How the results depend on the processing

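No member was called under any of the 17 alternatives, and S100a4 and S100a6 had estimates above 0 in all of them, between 1.13 and 1.84 and between 0.87 and 1.20. Their lowest adjusted p were 0.277 (limma on log2(FPKM + 1)) and 0.0738 (DESeq2), and their highest 0.9999 and 0.844. The number of members with separate groups was between 2 and 3 of 8 with 1 library left out, where 20.4% to 23.7% of all tested genes had separate groups in either direction, against 12.4% with all 6. The median of the members ranged from -0.06 to 0.34 over the same fits.

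The number of genes called was 9, and it was 120 with DESeq2, 15 with limma on log2(FPKM + 1) and a mean FPKM of at least 1, 0 with voom and quality weights, and 5 to 11 with 1 library left out. Of the binding partners 0 were called, and 1 with DESeq2 (Atp2a1). The neighbours had 0 calls throughout. The cause was not tested.

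Estimates near 0 changed sign. S100a1 was at 0.0142 with limma on log2(FPKM + 1), with and without the filter, at 0.0144 on log2(FPKM + 0.1), at 0.0356 with voom and at 0.0641 in the Y-linked libraries. With 1 library left out it ranged from -0.154 to 0.0585, S100a10 from -0.0643 to 0.34, S100a11 from -0.265 to 0.519 and S100a13 from -0.137 to 0.27. S100a9 stayed below 0 in the 16 that gave it a value, since it had too few reads for a minimum of 10 counts in every library.

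Whether the replicate numbers pair the samples is not settled by these values, and the main fit did not pair them. Deviations from the group means correlated by 0.17, 0.0324 and 0.17 for equal numbers and by -0.173 to 0.035 for unequal ones. WT replicate 2 was about as close to KO replicate 1 (0.035) as to KO replicate 2. With the replicate block 5 genes were called, no member among them, and S100a4 and S100a6 were at 1.44 and 1.02.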
